A study of Mus musculus with 6 samples.

Results

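The 10 myeloid C-type lectin receptor genes Clec4a1, Clec4a2, Clec4a3, Clec4b1, Clec4d, Clec4e, Clec4n, Clec5a, Clec7a and Clec12a were compared between 2 macrophage subsets of regenerating mouse muscle. They were taken by gene symbol from the 19938 genes that a single-symbol probe set measured. A gene with several probe sets was to be represented by the one chosen by the highest mean over all 6 arrays. Each of the 10 genes had exactly 1 probe set, so that choice did not arise, and the rule used no difference between the subsets.

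All 3 mice were of the strain B6.129P2-Lyzstm1(cre)Ifo/J, which carries Cre recombinase in a lysozyme gene active in myeloid cells, and the labels name no floxed allele, age or sex. The tibialis anterior, a lower leg muscle, had been injected with the snake toxin cardiotoxin 2 days before, which kills muscle fibres and draws in blood monocytes. CD45+ cells were enriched on magnetic beads and sorted for 2 surface antigens. The cells positive for Ly6C with little F4/80 (Ly6C+ F4/80low) are called Ly6C+ here, and those negative for Ly6C with much F4/80 (Ly6C- F4/80high) are called Ly6C-. Each mouse gave 1 array per subset, so that every group has n = 3 and the number of arrays limits the precision. No uninjured muscle or blood sample was analysed here.

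C-type lectin receptors are surface proteins whose lectin-like domain binds sugars, glycolipids or signals from damaged cells. The activating receptors carry, or borrow from the adaptors FcRγ and DAP12, a tyrosine motif that recruits the kinase SYK, and SYK signals through CARD9, BCL10 and MALT1 to NF-κB and cytokine genes. The inhibitory receptors carry a tyrosine motif that recruits phosphatases instead. Monocytes, macrophages, dendritic cells and neutrophils all use receptors of this family.

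In the RefSeq annotation (GRCm38.p6) all 10 genes lie on chromosome 6. Promoter windows of 300 bases, 250 before and 50 after a transcription start, were given for 9 of the 10 genes, all but Clec4n. The 4 windows below are shown because Clec4e and Clec4d are neighbours with unlike differences between the subsets, while Clec7a was lower and Clec12a was not. They run from chr6:123289822-123290121 on the minus strand for Clec4e, chr6:123261857-123262156 on the plus strand for Clec4d, chr6:129472730-129473029 on the minus strand for Clec7a and chr6:129349994-129350293 on the plus strand for Clec12a. Each is written 5′ to 3′ along its gene, and capitals mark the purine-rich letters GAGGAA or, on the other strand, TTCCTC, a form of the motif of ETS factors such as PU.1.
Clec4e: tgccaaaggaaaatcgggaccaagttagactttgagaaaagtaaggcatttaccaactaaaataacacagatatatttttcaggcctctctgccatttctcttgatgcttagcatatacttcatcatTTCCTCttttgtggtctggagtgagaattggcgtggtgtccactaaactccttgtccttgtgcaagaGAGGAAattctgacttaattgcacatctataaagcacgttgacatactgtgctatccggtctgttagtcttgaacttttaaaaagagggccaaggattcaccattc
Clec4d: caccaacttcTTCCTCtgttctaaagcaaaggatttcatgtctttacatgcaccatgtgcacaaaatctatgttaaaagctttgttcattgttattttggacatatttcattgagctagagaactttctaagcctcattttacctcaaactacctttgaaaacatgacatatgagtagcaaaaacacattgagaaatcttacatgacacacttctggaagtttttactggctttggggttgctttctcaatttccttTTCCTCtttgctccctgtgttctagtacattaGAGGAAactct
Clec7a: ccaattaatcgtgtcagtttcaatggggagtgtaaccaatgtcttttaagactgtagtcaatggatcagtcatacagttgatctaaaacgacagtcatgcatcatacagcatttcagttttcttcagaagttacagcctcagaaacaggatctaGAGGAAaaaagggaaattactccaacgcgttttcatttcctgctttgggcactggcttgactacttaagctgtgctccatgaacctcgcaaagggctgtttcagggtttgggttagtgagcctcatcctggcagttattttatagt
Clec12a: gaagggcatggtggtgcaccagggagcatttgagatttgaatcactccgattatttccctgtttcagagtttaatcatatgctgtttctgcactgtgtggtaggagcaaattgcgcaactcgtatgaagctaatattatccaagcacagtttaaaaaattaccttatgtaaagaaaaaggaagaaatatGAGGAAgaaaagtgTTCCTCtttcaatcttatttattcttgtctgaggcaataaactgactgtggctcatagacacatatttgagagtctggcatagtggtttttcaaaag

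GAGGAA was found on either strand in a window of 8 of the 9 genes, the exception being Clec4a2, against 31.3% of the 27025 genes in the same table and 28.3% of its 32851 windows. In Clec4e the matches began 123 and 56 bases before the start, in Clec7a 96 bases before it and in Clec12a 61 and 47 bases before it. Clec4d had 1 match 240 bases before the start and 2 after it. The motif was thus present in genes that were lower and in genes that were not. The windows of Clec4a1 and Clec4a3 read almost alike around a TTCCTC match, so the genes may not be separate cases. Of the 7 other motifs searched on both strands, GGAA and AGGAA lie inside GAGGAA and were found in 9 and 8 genes (96.5% and 69.8% of all genes). The C/EBP-type TTNNGNAA was found in 5 (44.1%), the AP-1 site TGANTCA in 2 (8.97%), the interferon-type element by its half-site spacing in 2 (3.99%), the κB-type element in 1 (53.5%) and the E-box CANNTG in 8 (75.0%). A match is a run of letters and not a shown binding site.

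The sorted populations had the markers of their gates. Both Ly6C antigens, encoded by Ly6c1 and Ly6c2, share 2 probe sets, on which the Ly6C+ arrays lay between 11.18 and 11.50 and the Ly6C- arrays between 7.74 and 8.31 on the log2 scale. Adgre1, the F4/80 gene, was higher in the Ly6C- cells by 0.73 (SE 0.07). Of 10 macrophage genes 6 were called higher there, 2 lower and 2 not called, against 19.5% higher and 14.3% lower over all genes. Across genes, the correlation was 0.995 to 0.997 between arrays within a subset and 0.977 to 0.980 between subsets. Genes are not independent replicates. A level of 5.44, the 95th percentile of 1194 olfactory and vomeronasal receptor genes, was taken as background.

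Across the 10 receptors, 7 were lower in the Ly6C- cells, 1 was higher and 2 were not called by limma at an adjusted p under 0.05 over all genes. Among all genes 14.3% were called lower and 19.5% higher. The 10 were proposed with results of these arrays known, so their count is a description. The median difference of the 10 was -1.13 on the log2 scale, against -0.06 over all genes. Differences are Ly6C- minus Ly6C+ throughout, and levels of different genes are not compared, since each probe set has its own response. The Ly6C- arrays all lay below the Ly6C+ arrays for 8 receptors (23.6% of all genes) and all above them for 1 (24.4%). Scaling moved the split to 9 lower and 0 higher after quantile or cyclic loess normalization in limma, where 1 and 0 were higher at an unadjusted p under 0.05. In sorted pools of cells, fewer expressing cells and less RNA per cell cannot be told apart.

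**Figure D1:**
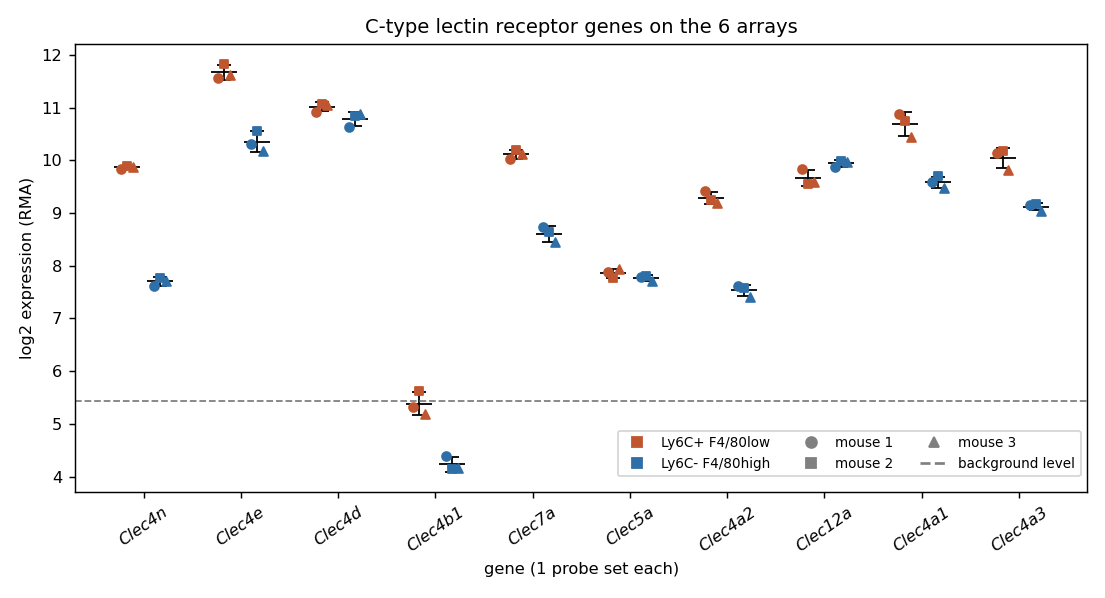
The log2 expression of the 10 receptor genes is plotted for each array, coloured by subset and shaped by mouse, with black bars for the subset mean ± SD (n = 3) and a dashed line at the background of 5.44. The subsets stand apart most clearly for Clec4n, Clec4a2 and Clec7a, overlap for Clec5a, and lie near or under the background for Clec4b1.

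Of the 4 genes whose products signal through FcRγ, Clec4n changed most. Clec4n encodes Dectin-2, a receptor for fungal mannans. It measured 9.83, 9.90 and 9.86 in the Ly6C+ cells of mice 1, 2 and 3 and 7.62, 7.77 and 7.71 in their Ly6C- cells. The ranges were far apart and the difference was -2.16 (SE 0.08, limma adjusted p = 8.37e-08), 4.48-fold lower and the 23rd most negative of all 19938 genes. The per-mouse differences were -2.21, -2.12 and -2.15, so the mice hardly varied.

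Clec4e encodes Mincle, which binds mycobacterial glycolipids and a nuclear protein released by dying cells. It stood at 11.55, 11.82 and 11.62 in the Ly6C+ cells and at 10.32, 10.56 and 10.18 in the Ly6C- cells. The groups did not overlap, and Clec4e was 2.48-fold lower, by -1.31 (SE 0.11, limma adjusted p = 1.77e-05). Even the lower levels were well above background, so both subsets had a clear Mincle signal.

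Clec4d encodes MCL, a glycolipid receptor that pairs with Mincle at the cell surface. Its levels were 10.92, 11.07 and 11.05 in the Ly6C+ cells against 10.63, 10.84 and 10.87 in the Ly6C- cells. All 3 of the latter were below all 3 of the former, but the difference of -0.23 (SE 0.09, 95% interval -0.43 to -0.03) missed the threshold (limma adjusted p = 0.0690). It passed under quantile (adjusted p = 0.0410) and cyclic loess scaling (0.0286), without the 50% of genes of lowest level (0.0333) and with a trended robust prior (0.0223). By mouse, Clec4d differed by -0.29, -0.23 and -0.18 and its partner Clec4e by -1.24, -1.26 and -1.44, and this gap between the genes was not tested.

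Clec4b1 encodes DCAR, an activating receptor described in dendritic cells and monocytes. It measured 5.32, 5.62 and 5.20 in the Ly6C+ cells, with 1 of 3 arrays above background, and 4.39, 4.15 and 4.15 in the Ly6C- cells, with 0 of 3. The difference of -1.15 (SE 0.12, limma adjusted p = 5.95e-05) passed the test, but both means lay under the background and no fold is given.

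Clec7a encodes Dectin-1, the β-glucan receptor, which has its own SYK-recruiting motif. It stood at 10.02, 10.19 and 10.12 in the Ly6C+ cells and at 8.72, 8.64 and 8.44 in the others. The subsets did not overlap, and Clec7a was 2.84-fold lower in the Ly6C- cells (SE 0.09 on the log2 scale, limma adjusted p = 2.53e-06). Mice 1, 2 and 3 differed by -1.30, -1.54 and -1.68.

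Clec5a, which encodes the DAP12-coupled receptor MDL-1, was the one member whose subsets overlapped. Its levels were 7.87, 7.76 and 7.94 in the Ly6C+ cells and 7.78, 7.81 and 7.71 in the Ly6C- cells. The difference was -0.09 (SE 0.08, 95% interval -0.27 to 0.08, limma adjusted p = 0.375), and mouse 2 went the other way at 0.04. After quantile normalization the difference was -0.27 (adjusted p = 0.0244) and after cyclic loess -0.24 (adjusted p = 0.0388), which moved it past the threshold.

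Of the inhibitory receptors, Clec4a2 was lower and Clec12a slightly higher. Clec4a2 encodes DCIR, whose tail carries the inhibitory tyrosine motif. It measured 9.41, 9.24 and 9.20 in the Ly6C+ cells and 7.61, 7.57 and 7.41 in the Ly6C- cells. With no overlap it was 3.37-fold lower, by -1.75 (SE 0.09, limma adjusted p = 8.48e-07), and its per-mouse differences ran from -1.67 to -1.80.

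Clec12a encodes MICL, an inhibitory receptor that binds uric acid crystals. It stood at 9.84, 9.56 and 9.58 in the Ly6C+ cells and at 9.87, 9.98 and 9.98 in the others. The ranges were only just apart. Clec12a was called higher by 0.28 (SE 0.09, limma adjusted p = 0.0394), and mice 1, 2 and 3 differed by 0.03, 0.42 and 0.39. A replicate block for the mouse removed the call (adjusted p = 0.0698), as did quantile (0.111) and cyclic loess scaling (0.159). It was also lost without the Ly6C- array of mouse 1 (0.0579), 2 (0.0847) or 3 (0.111), and without the Ly6C+ array of mouse 2 (0.119) or 3 (0.118). Without both arrays of mouse 2 the adjusted p was 0.189, and without those of mouse 3 it was 0.245.

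Clec4a1 and Clec4a3 encode DCIR4 and DCIR3, relatives of DCIR that lack its inhibitory motif. Clec4a1 measured 10.88, 10.74 and 10.44 in the Ly6C+ cells and 9.58, 9.69 and 9.47 in the Ly6C- cells. It was 2.15-fold lower without overlap (SE 0.11 on the log2 scale, limma adjusted p = 6.41e-05). Clec4a3 measured 10.14, 10.17 and 9.82 against 9.15, 9.17 and 9.04 and was 1.90-fold lower, again without overlap (SE 0.10, limma adjusted p = 9.75e-05). In both genes the Ly6C+ array of mouse 3 was the lowest of its subset. The Clec4a and Clec4b genes resemble each other in sequence, so their probe sets may read more than 1 gene, and this was not tested.

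**Figure D2:**
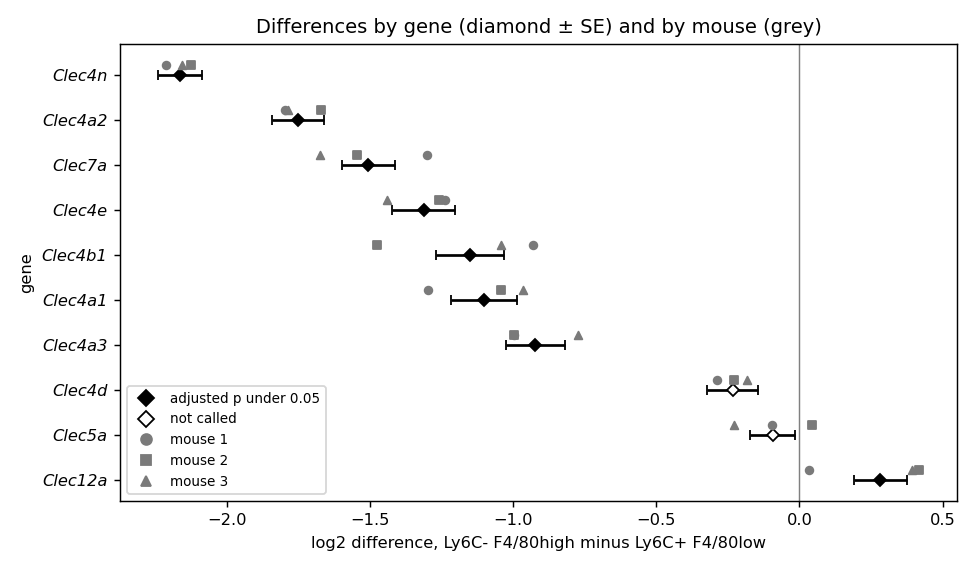
Each receptor's log2 difference, Ly6C- minus Ly6C+, is drawn as a diamond with its SE, filled where the adjusted p was under 0.05, with the difference within each of the 3 mice in grey above it. The differences run from -2.16 for Clec4n to 0.28 for Clec12a, and mouse 2 for Clec5a is the only mouse that departs from the sign of its gene.

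For Clec12a (0.03 to 0.42) and Clec5a (-0.23 to 0.04), the range of the per-mouse differences was wider than the mean difference, while each of the 7 lower receptors was lower in all 3 mice. Averaged over the 10 receptors, the arrays of mouse 3 lay 0.07 below the Ly6C+ mean and 0.06 below the Ly6C- mean, with 3 of 10 genes above the mean in each subset. The arrays of mouse 2 lay 0.05 and 0.06 above, with 7 and 9 of 10 genes above the mean. Over all genes the Ly6C+ and Ly6C- arrays of mouse 3 departed from their subset means by -0.001 and -0.023. Those of mouse 2 departed by -0.009 and 0.034.

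Along chromosome 6 the receptors fall into 4 places in the RefSeq gene order. A run of 9 neighbouring protein-coding genes, in the order Clec4a1, Clec4a3, Clec4a4, Clec4b1, Clec4a2, Clec4b2, Clec4n, Clec4d and Clec4e, holds 7 of the 10. Of the 9 genes 8 were called lower in the Ly6C- cells, against 14.3% of all genes, and Clec4d was not. Most of these calls repeat those of the 10 receptors. The 2 that are not among the 10, Clec4a4 at -0.49 (SE 0.08) and Clec4b2 at -0.65 (SE 0.12), were under the background on all 6 arrays. Among the 6684 genes of the whole series with no array above the background, 736 were called lower and 171 higher. Near the run, C3ar1, the receptor gene of a complement fragment, was higher by 0.35 (SE 0.07, limma adjusted p = 0.00458). Necap1, a gene of clathrin-mediated uptake between C3ar1 and Clec4a1, differed by -0.06 (SE 0.07, limma adjusted p = 0.525).

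Clec12a and Clec7a lie in another lectin cluster of the same chromosome. Clec12a has Clec2m and Clec12b as its nearest neighbours, both under the background on all arrays. Clec7a lies between Clec1a, also under the background, and Olr1, the oxidised LDL receptor gene, which was lower by -0.56 (SE 0.10, limma adjusted p = 0.00144). Clec5a stands alone between the olfactory receptor gene Olfr460 and the taste receptor gene Tas2r138, and neither of these was called.

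**Figure D3:**
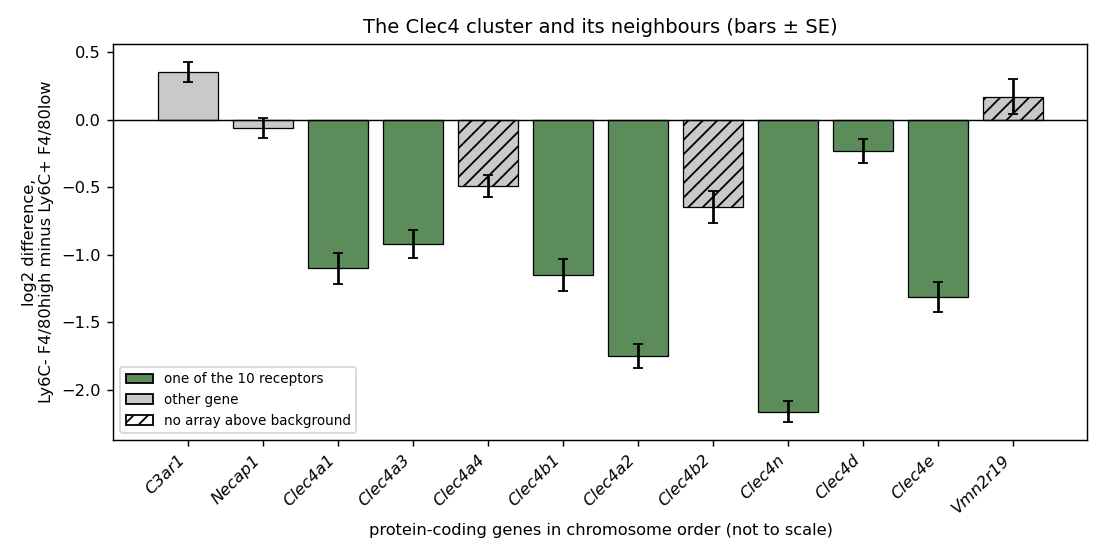
Bars show the log2 difference, Ly6C- minus Ly6C+, ± SE for the Clec4 genes and their measured neighbours in chromosome order, green for the 10 receptors and hatched where no array was above background. All 9 bars from Clec4a1 to Clec4e point down, from -2.16 at Clec4n to -0.23 at Clec4d beside it, and the bars of C3ar1 and of Vmn2r19, which is under the background, point up.

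Other C-type lectin genes did not share one direction. Of 38 measured, 13 were called lower, 7 higher and 18 were not called (median -0.15), and in 23 neither subset mean reached the background. The shares were 34.2% lower and 18.4% higher, against 14.3% and 19.5% of all genes. Of the 13 lower calls, 7 were of genes under the background on every array, as was 1 of the 7 higher calls. Such genes leaned the same way in the whole series, with 736 of 6684 called lower and 171 higher. The lectin list held 21 such genes. Without the 50% of genes of lowest level, 12 of the 38 were tested, and the split turned to 5 lower and 6 higher with a median of 0.24. The same filter moved all genes to 19.35% lower and 38.0% higher, with a median of 0.09 in place of -0.06. Lower calls of the lectin list numbered 8 without both arrays of mouse 1, and higher calls 4 without both of mouse 3. Among the lower ones, Cd209a, the gene of a DC-SIGN relative, differed by -1.19 (SE 0.08, limma adjusted p = 4.81e-06) and the activation marker gene Cd69 by -1.05 (SE 0.08). Klrk1, which encodes the NKG2D receptor, differed by -0.79 (SE 0.14) at levels under the background on every array. Among the higher ones, Clec2i, a ligand gene of NK receptors, rose by 1.20 (SE 0.10, limma adjusted p = 1.45e-05), the B cell co-receptor gene Cd72 by 0.89 (SE 0.19) and the endocytic lectin gene Cd302 by 0.86 (SE 0.08). The call of Cd72 was lost without both arrays of mouse 3 (adjusted p = 0.0504). The mouse block gave 12 lower and 8 higher.

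The adaptors of these receptors were not called. Fcer1g, the FcRγ gene, measured 12.38, 12.44 and 12.38 in the Ly6C+ cells and 12.42, 12.40 and 12.39 in the Ly6C- cells. Its difference was 0.00 (95% interval -0.15 to 0.16, limma adjusted p = 0.967). Tyrobp, the DAP12 gene, measured 11.68, 11.75 and 11.66 against 11.63, 11.73 and 11.72 (95% interval -0.17 to 0.17, limma adjusted p = 0.993). Hcst, the DAP10 gene, differed by -0.09 (SE 0.11, limma adjusted p = 0.546). The intervals of both main adaptors stop far short of the differences of the 7 lower receptors.

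Downstream, 26 measured signalling genes, the adaptors included, split into 9 lower, 3 higher and 14 not called (median -0.10). The shares were 34.6% lower and 11.5% higher, against 14.3% and 19.5% of all genes. Fgr, a SRC-family kinase gene, was the most changed of the 7 proximal kinases and enzymes measured, at -1.17 (SE 0.10, limma adjusted p = 1.47e-05). Plcg2, a phospholipase gene, differed by -0.34 (SE 0.08), the exchange factor gene Vav3 by -0.36 (SE 0.11), Syk itself by -0.28 (SE 0.09, limma adjusted p = 0.0435) and the kinase gene Btk by 0.33 (SE 0.09). Vav1 was not called. Prkcd, a kinase gene upstream of CARD9, was not called either (-0.18, SE 0.08, limma adjusted p = 0.0897), but it was called lower under quantile (adjusted p = 0.0340) and cyclic loess scaling (0.0190), without the 50% of genes of lowest level (0.0410) and with a trended robust prior (0.0374). In the CARD9 complex Card9 differed by 0.06 (SE 0.09, limma adjusted p = 0.637), while the protease gene Malt1 was lower by -0.77 (SE 0.08, limma adjusted p = 6.10e-05) and Bcl10 by -0.27 (SE 0.07).

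Several of these calls were lost when arrays were left out or the scaling was changed. The call of Syk was lost with a common median (adjusted p = 0.0671) and without any 1 array (0.0623 to 0.132) but the Ly6C+ array of mouse 1. In these fits the difference of Syk stayed between -0.23 and -0.30. The call of Vav3 was lost without the Ly6C- array of mouse 1 (0.100) or 3 (0.0721) or the Ly6C+ array of mouse 2 (0.0821). Bcl10 was no longer called without the Ly6C- array of mouse 1 (0.0555) or 3 (0.0565) or the Ly6C+ array of mouse 3 (0.0534). Btk lost its call under quantile (0.189) and cyclic loess scaling (0.145) and without the array of mouse 3 in either subset (0.0528 and 0.0537). Plcg2 lost it without both arrays of mouse 1 (0.0700). Vav3 also lost its call without both arrays of mouse 1 (0.0616), 2 (0.0588) or 3 (0.100). So did Bcl10 for mouse 1 (0.0795) or 3 (0.137), Syk for 2 (0.145) or 3 (0.215) and Btk for 3 (0.141). Over the 26 genes the lower calls numbered 5 without the Ly6C- array of mouse 1 or of mouse 3 or both arrays of mouse 1, and 11 under quantile or cyclic loess scaling or with a trended robust prior. The higher calls numbered 1 without the array of mouse 3 in either subset or in both, and 1 under cyclic loess. Fgr and Malt1 kept their calls under all alternatives.

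The ubiquitin ligase genes among the negative regulators were higher. Cblb, whose product marks SYK and some of the activating receptors for degradation, was 2.04-fold higher (SE 0.08 on the log2 scale, limma adjusted p = 7.46e-06), at 9.39, 9.45 and 9.44 against 8.31, 8.44 and 8.45. Its relative Cbl was higher by 0.25 (SE 0.07), a call lost under the mouse block (adjusted p = 0.0521), under cyclic loess (0.0854) and without the Ly6C+ array of mouse 2 (0.0555) or 3 (0.0754) or the Ly6C- array of mouse 3 (0.0928). The call of Cbl was also lost without both arrays of mouse 1 (0.0743), 2 (0.0703) or 3 (0.200). The phosphatase genes Ptpn6, Ptpn11 and Inpp5d were not called.

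Of 6 NF-κB and NFAT genes measured, 3 were lower and 3 were not called, while 14.3% of all genes were called lower. Rel differed by -0.80 (SE 0.09, limma adjusted p = 9.11e-05), Nfkb2 by -0.64 (SE 0.11) and Relb by -0.39 (SE 0.10). Relb was no longer called without the Ly6C- array of mouse 1 (adjusted p = 0.0603) or 3 (0.0545). The same held without the Ly6C+ array of mouse 2 (0.0551) or both arrays of mouse 1 (0.125). Rela, not called at -0.21 (SE 0.09, limma adjusted p = 0.0971), was called lower under quantile (adjusted p = 0.0401) and cyclic loess scaling (0.0257), with a trended robust prior (0.0494) and without the Ly6C+ array of mouse 2 (0.0355).

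Genes known to be induced through these receptors, a list that many other signals also induce, were lower in 9 of 14 cases, higher in 1 and not called in 4 (median -0.34). The shares of 64.3% lower and 7.1% higher stand against 14.3% and 19.5% of all genes, whose median was -0.06. Il6 was not above background in the Ly6C- cells and at least 1.76-fold lower there, with those arrays set to the background. Il1b fell by 1.61 (SE 0.09) and the inflammasome gene Nlrp3 by 0.63 (SE 0.08). Il10 differed by -0.61 (SE 0.12) and Ptgs2 by -0.54 (SE 0.09). The 4 not called were Tnf, Cxcl2, Ccl3 and Il12b. They differed by -0.01 (SE 0.10), -0.05 (SE 0.07), -0.02 (SE 0.08) and -0.11 (SE 0.11). Tnf, Cxcl2 and Ccl3 were above the background on all 6 arrays. Among the 9 lower genes, Il23a was under the background on all 6 arrays. The early-response genes Egr1, Egr2 and Egr3 differed by -0.35 (SE 0.11), -0.40 (SE 0.11) and -0.30 (SE 0.08). Egr1 lost its call without the Ly6C+ array of mouse 1 (adjusted p = 0.117) or 3 (0.0666) or the Ly6C- array of mouse 2 (0.0710) or 3 (0.131). Egr2 lost it without the Ly6C+ array of mouse 1 (0.0567) or the Ly6C- array of mouse 2 (0.0540) or 3 (0.0699), and Egr3 without the Ly6C- array of mouse 1 (0.0702) or the Ly6C+ array of mouse 3 (0.0516). Without both arrays of mouse 3 the lower calls of the list fell from 9 to 5. Those lost were Egr1 (0.184), Egr2 (0.135), Egr3 (0.0911) and Il23a (0.115). Without both of mouse 2 the lower calls numbered 6, with Egr1 (0.0781), Egr2 (0.0713) and Il23a (0.0585) lost. Egr3 also lost its call without both arrays of mouse 1 (0.127), and Il23a under quantile (0.0909) and cyclic loess scaling (0.133). Cxcl1, a neutrophil-attracting chemokine gene, was higher by 0.54 (SE 0.18). That call was lost under quantile (adjusted p = 0.0764) and cyclic loess scaling (0.0974). It was also lost without the Ly6C+ array of mouse 2 (0.113) or 3 (0.102). The same held without the Ly6C- array of mouse 1 (0.123) or 2 (0.0663), or both arrays of mouse 2 (0.156).

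**Figure D4:**
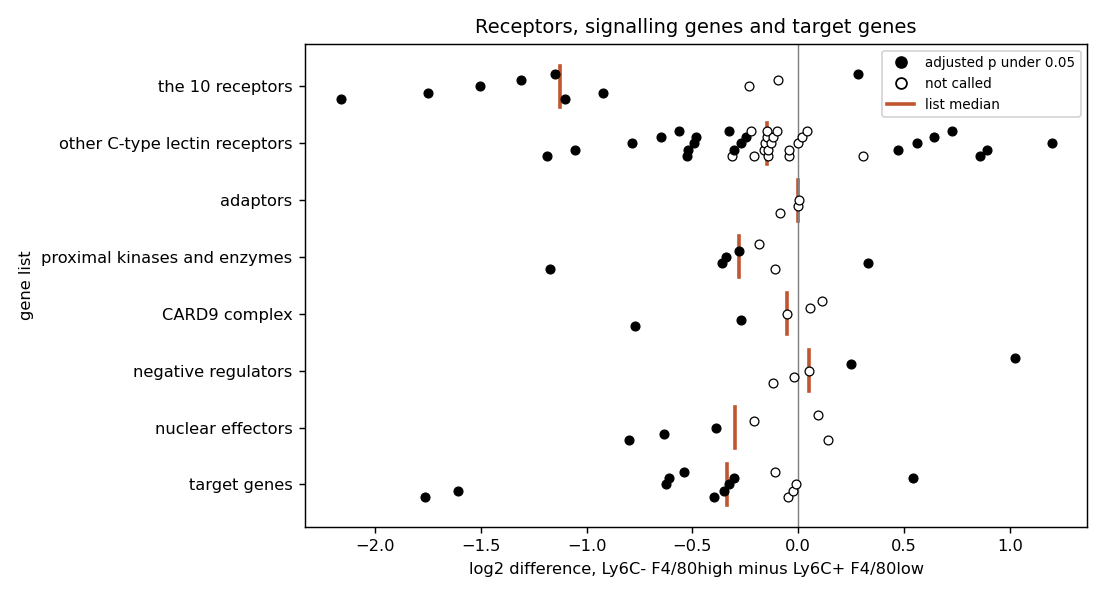
Each point is 1 gene's log2 difference, Ly6C- minus Ly6C+, filled where the adjusted p was under 0.05, with a coloured line at the median of its list. The median of the 10 receptors is -1.13, that of the adaptors is 0.00 and that of the target genes is -0.34.

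Among 5 genes of described self ligands, Anxa1 and Anxa5, annexins exposed on dying cells and bound by Dectin-1, were higher by 0.74 (SE 0.09) and 0.37 (SE 0.08). Sf3b3, which encodes the nuclear protein bound by Mincle, differed by -0.12 (SE 0.08, limma adjusted p = 0.255). Of 5 myeloid transcription factor genes, Spi1, which encodes PU.1, differed by -0.02 (SE 0.07, limma adjusted p = 0.875). Cebpb, needed for Mincle induction in macrophages, was lower by -0.67 (SE 0.10, limma adjusted p = 0.000797), at 9.71, 10.02 and 10.05 against 9.15, 9.27 and 9.35. Cebpa was higher by 0.82 (SE 0.12). Cebpe was not called at -0.26 (SE 0.10, limma adjusted p = 0.0819), but was lower under quantile (adjusted p = 0.0122) and cyclic loess scaling (0.0188), without the 50% of genes of lowest level (0.0446), with array weights (0.0494), and without the Ly6C+ array of mouse 1 (0.0496) or the Ly6C- array of mouse 2 (0.0362). Irf8 was higher by 0.29 (SE 0.09), a call lost under quantile (adjusted p = 0.150) and cyclic loess scaling (0.198). It was also lost without the Ly6C- array of mouse 1 (0.0936) or 3 (0.105) or the Ly6C+ array of mouse 2 (0.0790) or 3 (0.0663). Without both arrays of mouse 1 (0.127) or 3 (0.184) it was lost as well.

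The 5 genes whose pattern over the 6 arrays was closest to the mean of the 10 receptors, each centred on its own mean, were Irf7, Adgre4, Atp8b2, Map3k14 and Oas2. Their Pearson correlations with it ran from 0.999 to 1.000, and the split between the subsets makes up most of them. Map3k14, which encodes the NF-κB-inducing kinase NIK, differed by -1.37 (SE 0.09) and the flippase gene Atp8b2 by -0.77 (SE 0.07).

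Markers of other cells moved with the receptors in part. Their counts stand against 14.3% of all genes called lower and 19.5% called higher. All 6 measured monocyte genes were lower in the Ly6C- cells, whose arrays had a list mean of 8.73 to 8.82 against 10.78 to 10.94. Of 11 neutrophil genes 3 were lower (list mean 5.10 to 5.26 against 5.34 to 5.43). On all arrays 7 were under the background, among them Mpo, Elane and 2 of the 3 lower genes, Ly6g and Cxcr2. S100a9 was above it on the Ly6C+ arrays alone and at least 1.27-fold lower in the others. Its partner S100a8 was above it on all 6 arrays and not called, at 0.30 (SE 0.13, limma adjusted p = 0.0916), with the Ly6C- array the higher one in 3 of 3 mice. Csf3r, the G-CSF receptor gene, was also above it throughout, at a difference of -0.04 (SE 0.07, limma adjusted p = 0.680). Of 10 dendritic cell genes 5 were lower and 2 higher (list mean 6.14 to 6.19 against 6.45 to 6.49), with Xcr1 and Clec9a under the background everywhere and Flt3 and Siglech above it on the Ly6C+ arrays alone. The 2 higher genes, Itgax (CD11c) by 0.37 (SE 0.10, limma adjusted p = 0.0188) and Cd24a by 0.43 (SE 0.10, limma adjusted p = 0.00975), were above the background on all 6 arrays. Cd209a and Clec9a are also among the other lectin genes.

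Lymphocyte and NK genes were lower in 1 of 9 cases, where 14.3% of all genes were called lower. The 1 was Cd3e at -0.45 (SE 0.09), and the list means were 4.20 to 4.37 against 4.41 to 4.50. Eosinophil and mast cell genes were lower in 1 of 7, Siglecf at -0.38 (SE 0.11), with list means of 4.66 to 4.95 against 4.87 to 5.01. Muscle and stromal genes were lower in 5 of 9 (5.92 to 6.02 against 6.31 to 6.38), the most changed being the endothelial cadherin gene Cdh5 at -1.51 (SE 0.10). The part of these cells in the receptor differences was not tested.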

How the data were processed

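The deposited log2 values of 6 arrays, 1 per subset and mouse, were made by the authors with RMA, per the submitters' processing notes. Software and settings are not given in the sources consulted. The scale follows from the range of the values (1.20 to 13.5). Of 35556 probe sets, 21789 had 1 gene symbol, 1621 several and 12146 none in the annotation given. Those with 1 symbol gave 19938 genes, 1 probe set each by the highest mean over all 6 arrays.

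Differences were fitted over all genes by lmFit and eBayes of limma 3.58.1 (R 4.3.3, two-sided) without a filter, and a gene was called below an adjusted p (Benjamini-Hochberg) of 0.05. The fit was checked on simulated data. Replicates are separate mice. Same-numbered arrays come from 1 mouse, and their deviations from the subset means correlated at 0.03, -0.08 and 0.09. As the sources name no paired test, the mouse block is an alternative. The others were the omission of single arrays or mice, array weights, quantile, cyclic loess and median scaling, a level filter, a robust prior with a trend, and the mean of probe sets.

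Where all arrays of 1 subset lay under the background, those arrays were set to the background and the fold is a bound. The 10 genes, the gene lists and the background were chosen with earlier results of these data known. Named genes are the 10 receptors and every called adaptor, proximal kinase or CARD9 complex gene with Fcer1g, Tyrobp, Syk and Card9. Every target gene is named, and of other lists the 3 largest called differences per direction. The 5 genes of most similar pattern and neighbours in RefSeq order are named too. Not called genes and markers named beside a count were picked after their values were seen. Of the 10 genes 9 matched a RefSeq promoter (GRCm38.p6). RMA compresses low signals, which understates differences of weakly expressed genes.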

Additional observations from a re-analysis of the deposited data

How the results depend on the processing

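Of 169 values of the 10 receptors under 17 alternatives, 153 stayed on their side of the threshold and all 169 kept their direction. The mouse block, the level filter, the trended robust prior and the mean of probe sets left every difference unchanged, so no direction could turn there. The mean of probe sets was no test of the 10 receptors, which have 1 probe set each. The 7 lower receptors kept their calls wherever they were tested, and Clec4b1 was not tested without the 50% of genes of lowest level. With the mouse as a replicate block, and after quantile or cyclic loess normalization, 0 of the 10 were called higher by limma (1, 1 and 0 at an unadjusted p under 0.05). Leaving out 1 array or 1 mouse gave 0 to 1 higher and 7 lower receptors. Over all genes, the number called lower was 1321 to 3290 and the number called higher 2677 to 3597 without 1 array or 1 mouse. It fell most among single arrays without the Ly6C- array of mouse 1 (1866) or 3 (1790). Without the 50% of genes of lowest level, 12 other C-type lectin genes were tested and 5 called lower. Their median was 0.24, against 0.09 over all genes under that filter. Without 1 array or 1 mouse, 8 to 13 of the other lectin genes were called lower and 4 to 8 higher. Signalling genes called lower numbered 5 to 9 and higher 1 to 3 without 1 array or 1 mouse. They numbered 11 lower and 2 higher under quantile normalization, 11 and 1 under cyclic loess, 11 and 3 with a trended robust prior and 10 and 3 without the 50% of genes of lowest level. The block changed no call of the 10 receptors other than that of Clec12a. The number of arrays, and background for weakly expressed genes such as Clec4b1, limit the precision. Except where fewer arrays or genes were used, the cause of these changes was not tested.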
